A study of Mus musculus with 4 samples.

Results

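The cells described here are macrophages that carry transcripts of Cx3cr1, Fcrls, Hpgd, Gpr34 and Cspg4 and that lay among cells sorted from mouse tumours as innate lymphoid cells. A droplet barcode was taken as a member when it had at least 500 genes, at most 10% mitochondrial UMIs (unique molecular identifiers, the counted transcripts), at least 3 of the 5 gate genes with a UMI, and fewer than 5 UMIs summed over 6 cell cycle genes (Mki67, Top2a, Birc5, Plk1, Cdca3 and Cenpf). Of the 23294 barcodes that passed the limits on genes and mitochondrial UMIs, 4934 were members. The gate was built on measured counts, so the levels of its genes are given as descriptions only.

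The series holds 4 libraries of 10x 3′ single-cell RNA sequencing from tumours of TC-1, a mouse lung epithelial tumour cell line, grown from 300000 cells under the skin of wild-type C57/bl6 mice. One library came from a tumour group given cisplatin (6 mg/kg into the peritoneum, once, at a tumour size of 40 mm²) and collected on day 1, 1 from day 3, 1 from day 7, and 1 from a group that 1 label calls PBS and another untreated. Cisplatin is a platinum drug that crosslinks DNA. The sort kept CD45+ cells without lineage markers that carried CD90 and CD127, which is meant for innate lymphoid cells, so macrophages entered in spite of it. The day of the PBS collection and the number of mice in each library are not given in the sources used here. Each condition is 1 library, so day, tumour, sort and library cannot be told apart. Intervals below are 95% intervals for counting error only, except those of list medians. The latter reflect the spread between the genes of a list.

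CX3CR1 is the receptor for the membrane-bound chemokine fractalkine. In mice its gene, with Fcrls (a scavenger receptor related to Fc receptors), Gpr34 (a receptor for lysophosphatidylserine), P2ry12, Olfml3 and Tmem119, is best known from microglia, the macrophages of the brain, where transforming growth factor beta (TGF-beta) keeps the programme on. Hpgd encodes the enzyme that inactivates prostaglandins, and Cspg4 the proteoglycan NG2, better known from pericytes and glial precursors. Tissue macrophages outside the brain can carry parts of the same programme. On the GRCm38 build, in the GENCODE annotation, Cx3cr1 (chr9:119901616-120069879) and Fcrls (chr3:87250758-87263738) lie on the minus strand, and Hpgd (chr8:56294585-56321043), Gpr34 (chrX:13632089-13640858) and Cspg4 (chr9:56865033-56899870) on the plus strand, all as protein-coding genes.

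Promoter sequences of a gate gene and of a gene that the gate did not use but that was higher in members are shown to place both in the genome. They are the 250 bases upstream of the RefSeq start on the GRCm38.p6 build, and each is read 5′ to 3′ on the gene's strand, for Hpgd (chr8:56294302-56294551, plus strand) and Olfml3 (chr3:103738002-103738251, minus strand).
Hpgd: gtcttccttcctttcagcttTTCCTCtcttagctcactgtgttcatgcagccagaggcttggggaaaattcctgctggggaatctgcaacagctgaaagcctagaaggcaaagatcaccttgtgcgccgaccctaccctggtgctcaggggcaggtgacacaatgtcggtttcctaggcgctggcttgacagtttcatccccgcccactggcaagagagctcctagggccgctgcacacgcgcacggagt
Olfml3: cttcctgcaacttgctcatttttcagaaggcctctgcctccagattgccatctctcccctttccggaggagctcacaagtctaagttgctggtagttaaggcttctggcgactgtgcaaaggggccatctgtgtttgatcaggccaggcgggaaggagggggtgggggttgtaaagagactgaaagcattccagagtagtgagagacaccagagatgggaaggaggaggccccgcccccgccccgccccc
Capitals mark GAGGAA, the core of the box bound by the macrophage factor PU.1, searched on both strands. It occurs once in the Hpgd window, on the reverse strand, and these letters are not in the Olfml3 window. Of 32851 promoter windows of this length, 23.3% hold it, and a match is given as a description of the letters only.

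The libraries held 10063 (PBS), 10745 (day 1), 6264 (day 3) and 2981 (day 7) barcodes, of which 8075, 7484, 4964 and 2771 passed both limits. Any pair of libraries shared between 4 and 32 barcode sequences, at most 0.511% of the smaller library, and at most 1 among members. Members were deeper than the macrophages they were compared with. Their median was 6641, 11470, 10850 and 6625 UMIs with PBS and on days 1, 3 and 7, against 5486, 8165, 6328 and 4511 UMIs in other macrophages. The other macrophages (3862, 3812, 3343 and 1673 barcodes) had at most 2 gate genes, at least 4 of 8 macrophage genes and fewer than 2 of 8 lymphocyte genes.

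Members were macrophages by their transcripts. At least 4 of 8 macrophage genes, among them C1qa, C1qb, C1qc, Csf1r, Adgre1, Fcgr1 and Cd68, were found in all but 3 of the 4934 members. Csf1r, the receptor for macrophage colony-stimulating factor, was detected in 98.6%, 99.1%, 100% and 94.7% of members with PBS and on days 1, 3 and 7. Lymphocyte barcodes, used here as a background, had at least 3 of 8 lymphocyte genes and at most 2 of the 8 macrophage genes, so only genes outside those 8 can be compared with them. Their median depth was 1894, 3061, 2878 and 2249 UMIs. Trem2, a lipid receptor of macrophages outside those 8, was found in 83.3%, 77.1%, 73.3% and 73.7% of members after thinning each barcode to 2000 UMIs, beside 18.2%, 26.3%, 11.5% and 12.8% of thinned lymphocyte barcodes (95.4% to 98.5% and 15.4% to 37.7% unthinned). Apoe and Lyz2, also outside those 8, separated the classes less, in 81.1% to 100% and 60.8% to 97.4% of thinned lymphocyte barcodes. Both were in at least 99.2% of thinned members. Unthinned, C1qa, 1 of the 8, was still in 38.5% to 78.3% of lymphocyte barcodes. Thy1, which encodes the CD90 of the sort gate, was found in 1.24%, 3.70%, 2.29% and 2.36% of thinned members. In thinned lymphocyte barcodes it was found in 36.8% to 59.0%. Unthinned, it was in 4.15%, 16.2%, 17.6% and 7.14% of members.

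Hpgd, though a gate gene, was found in a minority of members. Hpgd had a UMI in 26.3%, 30.5%, 24.4% and 25% of members with PBS and on days 1, 3 and 7. None of the 46, 53, 179 and 65 lymphocyte barcodes, which were shallower, had one. After thinning it was in 10.1%, 7.88%, 10.7% and 8.57% of members and in 0 of 22, 38, 148 and 39 lymphocyte barcodes. The upper interval bounds of those zeros were 15.4%, 9.25%, 2.46% and 9.025%. Only on day 3 did the bound lie below the members' share. The rule itself raised that share, so no difference is read from these values. Fcrls and Cx3cr1 were near universal, at 99.2% to 100% and 89.9% to 95.6% of members, while Gpr34 ranged from 51.3% to 65.5% and Cspg4 from 33.2% to 59.4%. Fcrls also reached 7.82% to 30.8% of the lymphocyte barcodes, and Cx3cr1 2.79% to 15.1%, a background for those 2 shares. Other macrophages had Fcrls in 90.1%, 79.6%, 33.2% and 81.1% with PBS and on days 1, 3 and 7. Cx3cr1 was in 47.9%, 31.9%, 15.2% and 42.1% of them, though they were held to at most 2 gate genes. Neither gene was thus particular to members. Most members had Cx3cr1 with Fcrls and 1 further gene. Cx3cr1, Fcrls and Cspg4 was the pattern of 33.0% of PBS members and 25.8% of day 1 members, while Cx3cr1, Fcrls and Gpr34 was that of 41.2% of day 3 and 47.7% of day 7 members. Members with all 5 genes were 2.93%, 4.81%, 0.763% and 1.68%.

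Members made up a similar part of the PBS and day 1 libraries and were scarce on day 3. They were 28.4% of kept barcodes with PBS (interval 27.4 to 29.4%) and 27.2% a day after cisplatin (interval 26.2 to 28.2%). By day 3 they were 2.64%, with an interval of 2.21 to 3.12%, and by day 7 they were 17.2%, with an interval of 15.8 to 18.6%. The day 3 value lies far below the other 3, and the PBS and day 1 intervals overlap. With every barcode thinned to 2000 UMIs before the gate, which removes 505, 555, 565 and 391 shallower barcodes, the shares were 10.0%, 5.50%, 0.387% and 5.71%. At equal depth the day 1 share (4.97 to 6.06%) thus lay below the PBS share (9.33 to 10.7%) and its interval overlapped that of day 7 (4.82 to 6.72%). The order of day 1 and day 7 was thus not kept at equal depth, while day 3 was lowest in both.

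The low share on day 3 was also seen under a looser and a stricter rule. With at least 2 gate genes the shares were 59.2%, 54.7%, 11.7% and 47.4%, and with at least 4 they were 7.27%, 8.81%, 0.262% and 3.03%. Among all non-cycling macrophages, 3.86% had no gate gene with PBS, 10.2% on day 1, 55.8% on day 3 and 10.1% on day 7. Fcrls in other macrophages was 212 CPM on day 3 (CPM, UMIs of the gene per 1000000 UMIs summed over the class), against 1351 CPM in the PBS library, and Cx3cr1 was 44.5 CPM against 216 CPM. A smaller number of these cells and a lower level of the gate genes per cell cannot be told apart from the shares.

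**Figure D1:**
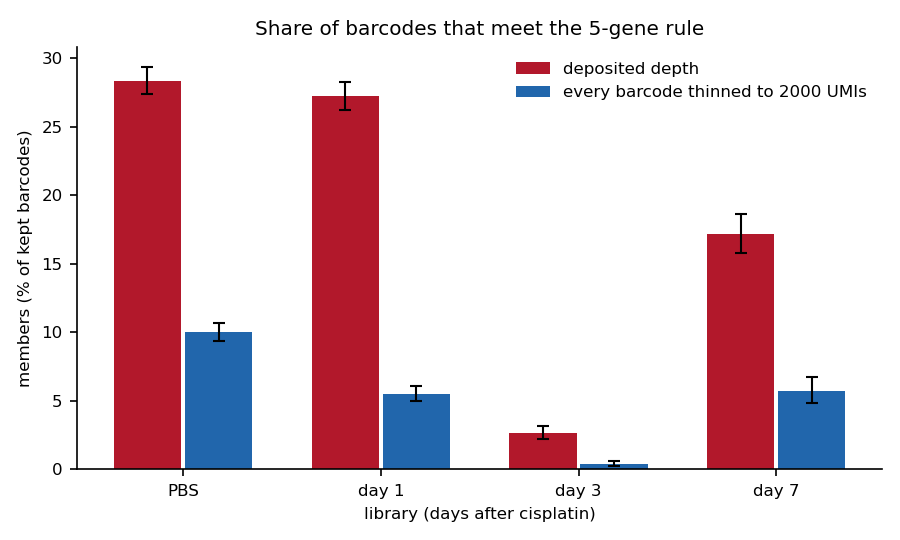
Share of kept barcodes that met the rule in each library (PBS, then 1, 3 and 7 days after cisplatin), at the deposited depth in red and after thinning every barcode to 2000 UMIs in blue, with exact Clopper-Pearson 95% intervals of counting error. Day 3 is lowest in both, at 2.64% and 0.387%, and day 1 lies near PBS only at the deposited depth.

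The levels of the gate genes in members followed from the rule and are given without a test. Fcrls stood at 1981, 1480, 1148 and 2012 CPM in members with PBS and on days 1, 3 and 7, and Cx3cr1 at 447, 334, 295 and 473 CPM. Both were lowest on day 3 and similar in the PBS and day 7 libraries. Gpr34 was 102, 75.0, 65.4 and 139.8 CPM, Hpgd 51.0, 42.4, 28.1 and 52.7 CPM, and Cspg4 139.5, 112, 60.8 and 69.3 CPM. Cspg4 alone stayed low on day 7. At the edge of the rule in the PBS library, macrophages with 2 gate genes had 1583 CPM of Fcrls and 13.8 CPM of Gpr34, and macrophages with 3 had 1919 CPM and 82.4 CPM.

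Genes outside the rule differed step by step with the number of gate genes, on both sides of the limit of 3. P2ry12, the ADP receptor by which microglia sense injury, was at 15.6, 35.5, 50.6, 66.4 and 74.9 CPM in PBS macrophages with 0, 1, 2, 3 and 4 or 5 gate genes. On day 3 the same series was 15.5, 22.6, 28.0, 53.9 and 71.1 CPM, the last from 13 barcodes. Olfml3, a secreted olfactomedin protein, went the same way, with 151, 235, 331, 417 and 492 CPM in the PBS library. Arg1, the arginase of alternatively activated macrophages, ran in the other direction, from 206 CPM with no gate gene to 99.3, 46.6, 38.1 and 19.0 CPM. Depth moved with the number of gate genes as well, and a comparison at like depth follows the gene lists. The median depth of PBS macrophages was 3260 UMIs with 0, 5873 with 2 and 6718 with 4 gate genes.

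**Figure D2:**
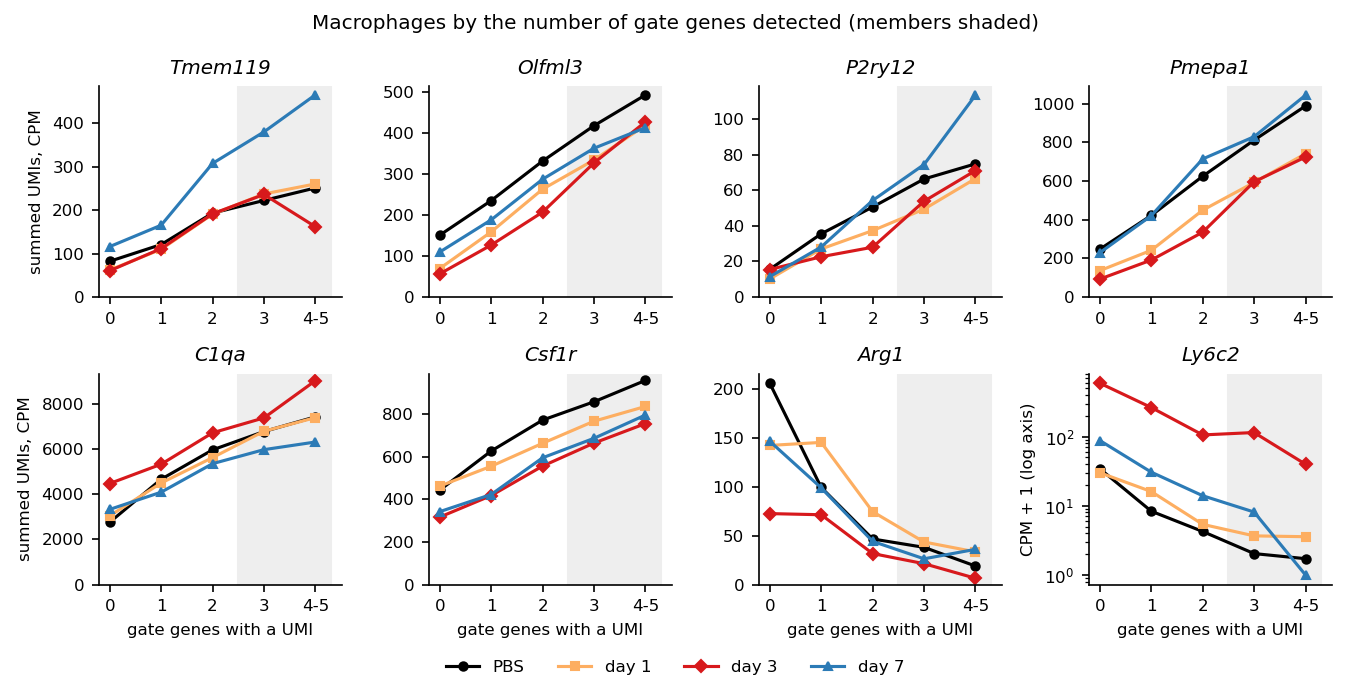
Summed expression in CPM (CPM + 1 on a log axis for Ly6c2) of 8 genes in non-cycling macrophages with 0, 1, 2, 3 and 4 or 5 gate genes, 1 line per library; grey shading marks members. Olfml3, P2ry12, Pmepa1, C1qa and Csf1r climb with the number of gate genes in every library, as does Tmem119 except at 4 or 5 genes on day 3, while Arg1 and Ly6c2 are lower at 3 gate genes than at 0; the day 3 point at 4 or 5 genes rests on 13 barcodes.

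Members were set against other macrophages of the same library over all genes, with sums per class and library and the library as a block, in edgeR's quasi-likelihood test. Of 12261 genes outside the rule, 687 were higher in members (5.6%) and 882 lower (7.19%) at an adjusted p under 0.05. Genes of the brain macrophage programme, complement C1q and the haematopoietic prostaglandin D synthase were higher. Genes of antigen presentation, interferon response, inflammation, monocytes and glycolysis were lower. The gate genes were picked from these cells, so the p-values say how even a difference was over the 4 libraries and are no independent evidence for a separate cell type.

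The call counts depended on the libraries used. Without the day 1 library 158 genes were higher and 275 lower, without the day 7 library 371 and 553, without the PBS library 381 and 581, and without the day 3 library 985 and 1084. Without the library as a block no gene passed in edgeR, with 253 higher and 345 lower at an unadjusted p under 0.05, while DESeq2 with the block called 504 and 695.

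Of the 28 fitted genes of the brain macrophage programme 19 were higher in members and 0 lower in edgeR (21 and 1 at an unadjusted p under 0.05). Their median log2 difference was 0.43, beside -0.01 over all genes. P2ry12 had 68.1, 53.04, 50.4 and 80.1 CPM in members with PBS and on days 1, 3 and 7, against 44.7, 30.7, 19.9 and 39.5 CPM in other macrophages. The lowest member value was above the highest value of other macrophages (log2 difference 0.84, SE 0.09, adjusted p = 0.00051, higher in 4 of 4 libraries).

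Olfml3 had 436, 344, 318 and 364 CPM in members and 295, 204, 103.4 and 229.8 CPM in other macrophages, with no overlap (0.85, SE 0.13, adjusted p = 0.0021). Tmem119, a membrane protein used as a microglial marker, had 228, 232, 218 and 390.5 CPM in members and 167, 147, 97.6 and 231 CPM in other macrophages. It was higher in each library (0.72, SE 0.09, adjusted p = 0.0007), though the ranges overlapped, since the day 7 value of other macrophages passed 2 of the member values. P2ry13, a related nucleotide receptor, Rnase4, Cd81, Ltc4s, Trem2, Golm1 and Mertk were called higher as well, at log2 differences between 0.42 and 0.88. Sparc, Selplg, Adgrg1 and Entpd1, also listed, were not called. Sall1, the transcription factor that defines microglia, had 0 UMIs in the members of all 4 libraries, a count that at this depth does not show that the gene was silent, and Siglech stayed at or below 0.156 CPM.

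**Figure D3:**
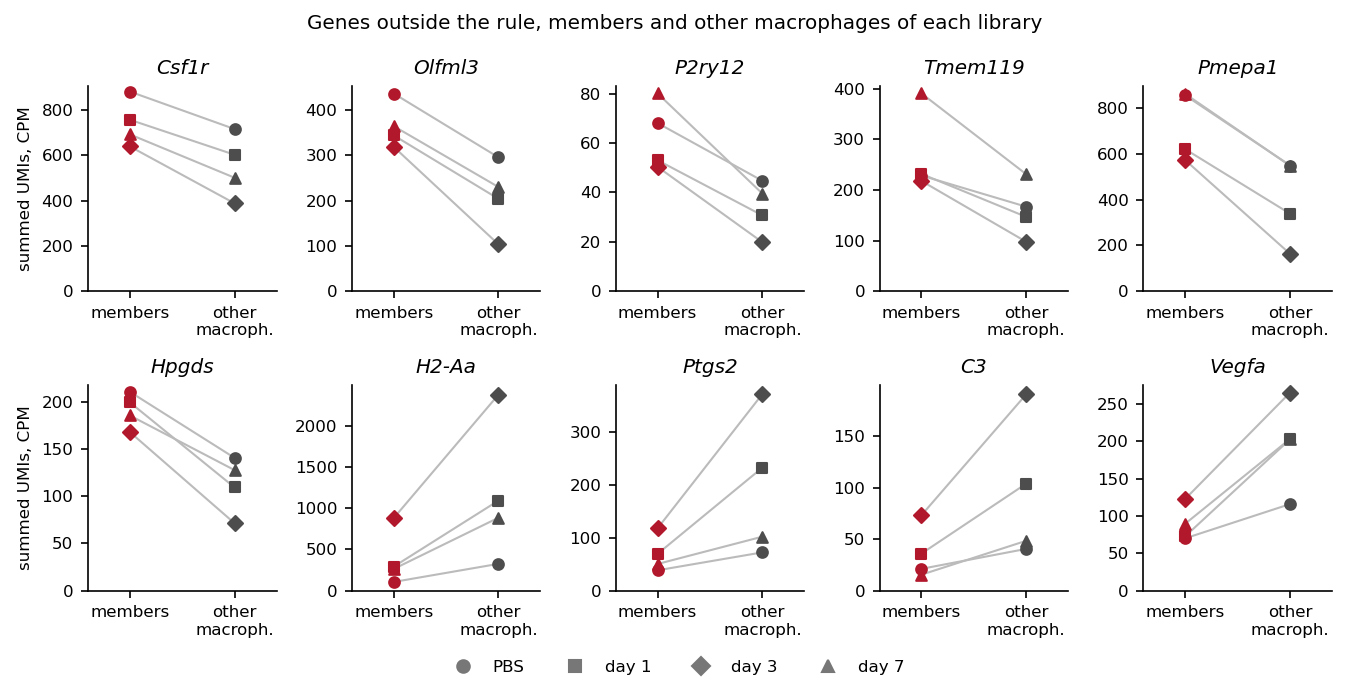
Summed expression (CPM) of 10 genes outside the rule in members (left, red) and other macrophages (right, grey), with a line joining the 2 classes of each library and a marker for each library. Csf1r, Olfml3, P2ry12, Tmem119, Pmepa1 and Hpgds lie higher in members of every library, and H2-Aa, Ptgs2, C3 and Vegfa lower.

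Pmepa1, a target and inhibitor of TGF-beta signalling, had 855, 620, 572 and 861.5 CPM in members, against 549, 339, 163 and 548 CPM in other macrophages. The classes did not overlap (0.95, SE 0.14, adjusted p = 0.0023). The receptors Tgfbr2 (0.50) and Tgfbr1 (0.38) and the repressor Ski (0.31) were also called higher. Bambi, a pseudoreceptor that blunts the pathway, Tgif1, a corepressor, and Id1 and Id3, targets of the related bone morphogenetic proteins, were called lower, at -0.47, -0.47, -1.12 and -0.64. In all, 4 of 28 fitted pathway genes were higher and 4 lower (median -0.06). Tgfb1, the ligand, averaged 190.2 ± 4.24 CPM in members and 186 ± 8.85 CPM in other macrophages (SD, n = 4 each) and was not called.

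Lipid mediator genes went both ways. Hpgds, which makes prostaglandin D2, had 211, 199.6, 168 and 186 CPM in members, against 141, 109, 71.3 and 128 CPM in other macrophages. The ranges did not overlap (0.77, SE 0.09, adjusted p = 0.00048). Ptgs2, the inducible cyclooxygenase, had 38.2, 69.4, 118 and 50.2 CPM in members, against 72.1, 232, 371 and 102 CPM in other macrophages. It was lower in each library, although the ranges overlapped (-1.38, SE 0.14, adjusted p = 0.00031). Ptges, the inducible prostaglandin E synthase (-1.10), Ptges3, Ptgis, the prostacyclin synthase, and Ltb4r1, the leukotriene B4 receptor (-1.14), were lower too. Alox5 and Ltc4s, which lead to the cysteinyl leukotrienes, were higher at 0.90 and 0.76, and Alox5ap at 0.24. The list of 29 fitted genes held 9 higher and 6 lower ones, at a median of 0.01.

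In complement the C1q subunits were higher, and C3 with genes of the alternative pathway lower. C1qa averaged 6763 ± 654 CPM in members and 5029 ± 334 CPM in other macrophages (SD, n = 4 each), and C1qa, C1qb and C1qc were higher by 0.41, 0.37 and 0.49 on the log2 scale. C3, the central component, had 21.1, 35.9, 73.2 and 15.4 CPM in members, against 40.5, 104, 191 and 48.4 CPM in other macrophages. It was lower in every library (-1.36, SE 0.10, adjusted p = 4.8e-05), and Cfb (-0.82) and Cfp (-0.31) were lower too. Of the integrin receptors Itgam was higher (0.28) and Itgax lower (-0.77), so that 4 of 20 fitted genes went each way.

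Of 21 fitted resident macrophage genes 10 were higher in members and 3 lower. Stab1, a scavenger receptor, rose by 0.68, Gas6, a bridge to dying cells, by 0.71, Igf1 by 0.71, Cbr2 by 0.73, Mrc1 by 0.45 and Folr2, a folate receptor, by 0.38. Cd163 and Lyve1 were not called (-0.43 and -0.53), and Ccl8 and Cd209f were among the 3 lower ones. Counted per barcode, at least 3 of Cd163, Folr2, Stab1, Lyve1 and Cbr2 were found in 46.2%, 59.3%, 33.6% and 33.8% of members with PBS and on days 1, 3 and 7, against 27.5%, 30.6%, 6.61% and 14.5% of other macrophages. These shares were not thinned, and members were the deeper class. Among transcription factors Bhlhe41 (0.87), Mef2c (0.61), Maf (0.44), Mef2a (0.36), Hes1 (0.35) and Cebpa (0.27) were higher, and 7 were lower, among them Cebpb, Klf4, Klf6, Egr1, Irf7 and Bhlhe40, of 29 fitted.

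Antigen presentation genes were lower. H2-Aa, an MHC class II chain, had 104, 289.9, 879 and 262 CPM in members with PBS and on days 1, 3 and 7, against 324, 1091, 2376 and 883 CPM in other macrophages. Members stood at about the same distance below in each library, between -1.91 and -1.44 on the log2 scale (-1.71, SE 0.07, adjusted p = 1.1e-06). H2-Ab1 (-1.65), H2-Eb1 (-1.75), the invariant chain Cd74 (-1.52) and the master regulator Ciita (-1.44) fell with it. Of 13 fitted genes 7 were lower, and H2-Ob, a chain of the inhibitor H2-O, was higher at 0.98. Dendritic cells carry MHC class II as well. Their markers summed to 6.21, 32.2, 17.7 and 5.85 CPM in members, against 15.8, 102, 139 and 20.8 CPM in other macrophages. The part of dendritic cell transcripts in this class difference was not tested.

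Every called gene of the interferon, inflammatory and chemokine ligand lists was lower. Of 41 fitted type I interferon genes 25 were lower and 0 higher (median -0.49), of 24 interferon-gamma genes 18 and 0 (-0.66), of 25 inflammatory genes 17 and 0 (-0.62), and of 20 chemokine ligands 11 and 0 (-0.72). At an unadjusted p under 0.05, 31, 20, 20 and 13 were lower and 0, 0, 0 and 1 higher. Cxcl9, a ligand that draws T cells through CXCR3, had 64.1, 68.8, 211 and 32.0 CPM in members, against 169, 253, 642 and 86.8 CPM in other macrophages (-1.63, SE 0.09, adjusted p = 6.1e-06). Il1b (-1.20), Arg1 (-1.25), Nos2 (-2.81) and Acod1, the itaconate synthase (-2.41), were lower as well. Monocyte genes followed, with 16 of 24 lower, among them Chil3 (-2.42) and Ly6c2 (-1.23), while Lyz2 was higher (0.43) and Ccr2 was not called. Glycolysis and hypoxia genes had 16 of 23 lower (median -0.30), with Slc2a1, the glucose transporter, at -0.84 and Ldha at -0.27.

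Growth factors and lipid genes were mixed. Vegfa, the main angiogenic factor, had 70.0, 72.8, 123 and 89.6 CPM in members, against 116, 203, 265 and 203 CPM in other macrophages, and was lower in each library (-1.14, SE 0.11, adjusted p = 0.00018). Areg (-1.62) and Il10 (-0.85) were lower, and Csf1r (0.43), Igf1 and Pdgfb (0.31) higher. In the lipid list Apoe (0.33), Trem2 (0.42), Ctsd (0.52) and Lipa (0.25) were higher, and 11 of 31 lower, with Lpl at -1.12 and Gpnmb at -1.03. Matrix genes had 3 of 30 higher and 13 lower, with Mmp12 at -1.66 and Mmp9 at -1.57. Of 35 p53 targets 2 were higher and 7 lower, Cdkn1a and Mdm2 among the lower ones (-0.43 and -0.50).

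Further genes named by size were Ecscr (1.18), Ttc28 (1.10) and Rapgef5 (1.08) on the higher side, with Cd33, a sialic acid lectin, Ctla2a, Scoc, Itga6 and Sulf2 between 0.72 and 0.85. On the lower side were Hba-a1 and Hbb-bs, the globins of red cells, Ly6i, Inhba, Ifit1bl1, Fscn1, Ifitm1, Slamf8, Ccr7, Il1r2, Fst, Upp1, B3gnt5 and Nrg1, at -3.35 to -1.89. Globin came almost wholly from the day 7 library, where Hba-a1 had 3.39 CPM in members and 89.7 CPM in other macrophages.

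Lymphocyte genes led the higher side by size. Other macrophages were held to fewer than 2 lymphocyte genes and members were not, and 2.71%, 16.1%, 14.5% and 7.14% of members with PBS and on days 1, 3 and 7 had 2 or more. Before that limit the matching shares of other macrophages were 4.19%, 17.0%, 17.9% and 6.64%. T cell markers summed to 59.2, 232.5, 271 and 168.5 CPM in members, against 21.4, 75.7, 67.9 and 35.7 CPM in other macrophages. Cd3g, a subunit of the T cell receptor complex, was called at 2.78, with Cd3d, Nkg7, Gzmb, Il2rb, Icos, Ltb, Thy1 and Ms4a4b behind it. Cd3g, Cd3d and Nkg7 are among the 8 lymphocyte genes, so the limit itself lowered them in other macrophages. Calls of lymphocyte genes are thus a description, though they count among the 687 higher genes. Without barcodes that had 2 or more lymphocyte genes or the top 5% of UMIs, Cd3g stood at -0.57, and 0 of 13 T cell markers were higher instead of 11. The sums were then 21.6, 57.4, 63.9 and 29.4 CPM in members and 21.1, 78.3, 69.8 and 37.6 CPM in other macrophages. This alternative puts the same limit on members, so the fall of the lymphocyte genes it uses follows from it. Dendritic cell markers summed to 5.85 to 32.2 CPM in members and 15.8 to 139 CPM in other macrophages, and mast cell markers to 0.924 to 43.6 CPM and 0.715 to 179 CPM. Pax5 and Fcer2a of B cells, Krt19 and Cldn4 of epithelia, and Alas2 of red cells were at 0 UMIs in members of all 4 libraries. Without the barcodes left out above, the brain macrophage programme had 20 of 28 higher and the MHC class II list 8 of 13 lower.

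**Figure D4:**
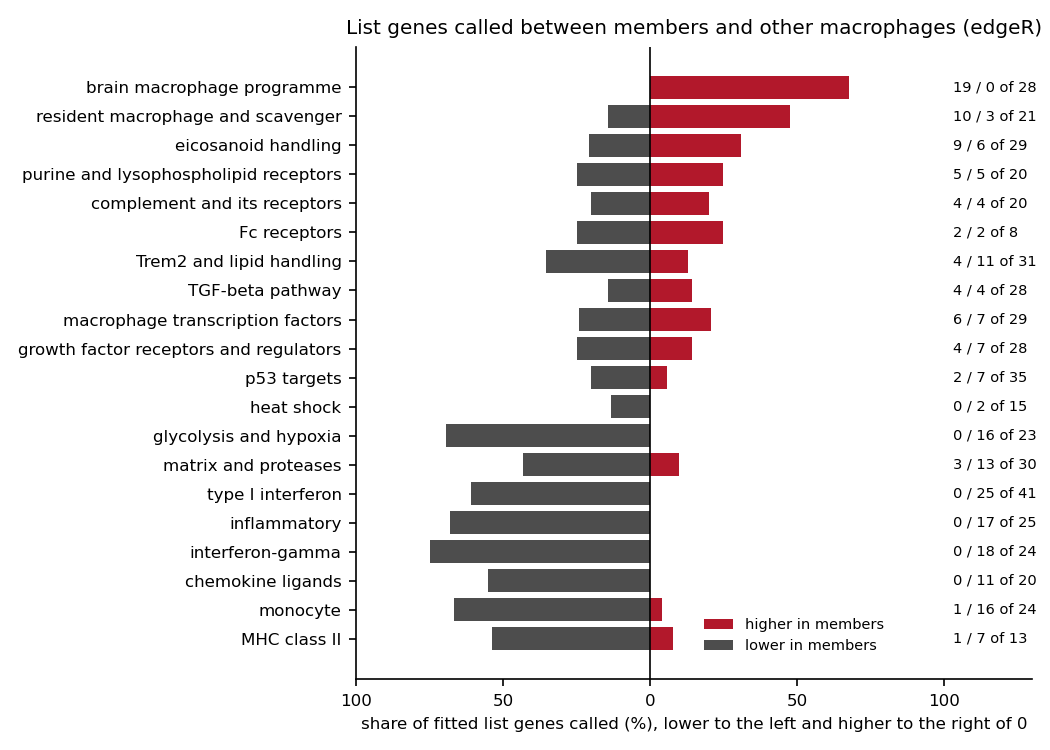
Share of the fitted genes of each list called higher in members (red, right of 0) or lower (grey, left of 0) than in other macrophages by edgeR, with counts of higher / lower of fitted genes at the right edge. The brain macrophage programme has 19 higher and 0 lower of 28, and the interferon, inflammatory and chemokine ligand lists have 0 higher.

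In a comparison at like depth, chosen after seeing the data, both classes were held to barcodes between the 25th and 75th percentile of the members' depth in their library. There 531 genes were higher and 774 lower, with P2ry12 at 0.72, Hpgds at 0.70, H2-Aa at -1.82 and C3 at -1.51. Across the 8 sums of members and other macrophages, the genes whose level was most like the mean level of the gate genes were Mtus1, Ldhb, Hpgds, P2ry13, Ski, Lamp1, Tmem176a, Hfe, Dtx4 and P2ry12, with Pearson r between 0.959 and 0.99 over 6293 genes compared. The sums of a library share its preparation and depth, and the members' sums were raised for the gate genes by rule, so this order is a description.

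Between a cisplatin day and PBS there is 1 library each and so no test. A gene is called here when its CPM in members differed 2-fold or more and the interval of the ratio left out 1, among genes with at least 20 UMIs over both sums. The 3 comparisons share the PBS library. Median shifts over all genes were 0.09, 0.01 and -0.12 on days 1, 3 and 7. Values of other macrophages of the same libraries stand beside many of the members' values, and whether the classes differ in their response was not tested. In other macrophages the genes called higher and lower were 5.79% and 1.74% of those measured on day 1, 8.77% and 8.11% on day 3, and 8.9% and 3.63% on day 7.

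On day 1 part of the p53 targets and MHC class II genes were higher in members than in PBS members. Of 12380 genes 638 were higher (5.15%) and 160 lower (1.29%). The p53 list had 11 of 35 targets higher and 0 lower on day 1, at a median log2 ratio of 0.66. Phlda3, a p53-induced inhibitor of Akt, had 47.8 CPM in day 1 members and 8.79 CPM in PBS members (log2 ratio 2.44, 2.19 to 2.70), and the ratio was 2.32 in other macrophages. Trp53inp1 (2.26, 1.90 to 2.63), Gdf15 (1.37, 1.21 to 1.53), Ccng1 (1.27) and Cdkn1a, the cell cycle inhibitor p21 (1.13, 1.08 to 1.18), were higher too. The matching ratios of other macrophages were 2.19, 1.15, 1.12 and 1.28.

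Of the 10 lowest genes on day 1, 6 are known from the cell cycle or DNA synthesis, a grouping made after their values were seen. Ccnb2, a mitotic cyclin, had 2.61 CPM in day 1 members and 23.8 CPM in PBS members (-3.19, -3.58 to -2.81), with other macrophages at -2.95, and Cdkn3, Nuf2, Stmn1, Tk1 and Pole were at -2.68 to -1.86. The limit of 5 UMIs over the 6 cell cycle genes is stricter for the deeper day 1 members, whose Mki67 stood at 9.66 CPM, against 19.8 CPM in PBS members. Such genes can be lower by the rule itself, so these values are a description. Lrmda, Immp2l, Gmds and Msra were among the lowest as well, at -2.53 to -1.80. H2-Aa had 289.9 CPM in day 1 members and 104 CPM in PBS members (log2 ratio 1.48, and 1.75 in other macrophages), and 5 of 13 measured MHC class II genes were higher. Markers of dendritic cells, which carry MHC class II as well, had 5 of 6 measured genes higher, summing to 32.2 CPM in day 1 members and 6.21 CPM in PBS members, with a median of 2.12 (2.04 without barcodes with lymphocyte genes and the top 5% of UMIs). Their part in the MHC class II values was not tested. Of the heat shock list, Hspa1b (1.36) and Hspa1a (1.02) were called higher, with 1.20 and 0.95 in other macrophages.

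Lymphocyte and neutrophil transcripts headed the day 1 list. Gzmf, a granzyme of killer cells, had 1049 UMIs in day 1 members and 1 UMI in PBS members (9.38, 6.90 to 14.68), with Gzme, Gzmd, Gzmc, Gpr174 and Cd8a also among the 10 highest. S100a9 and Saa3 were at 4.70 and 3.59, and Igfbp3 at 4.23. Mast cell markers had 6 of 6 measured genes higher, summing to 43.6 CPM in day 1 members and 14.1 CPM in PBS members, and fibroblast and pericyte markers 9 of 11, at 165 CPM and 68.5 CPM. Of 13 T cell markers 12 were higher, and 16.1% of day 1 members had 2 or more lymphocyte genes, against 2.71% of PBS members. Without such barcodes and the top 5% of UMIs, 396 genes were higher in place of 638, Gzmf was at 4.73, Cd8a at 4.41 and Cdkn1a at 1.13.

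On day 3 the remaining members carried more transcripts of many interferon genes, of part of the MHC class II and p53 genes, and of some monocyte genes than PBS members. This comparison rests on 131 barcodes with 1529286 UMIs, against 2290 barcodes with 16273919 UMIs. Of 11012 genes 559 were higher (5.08%) and 218 lower (1.98%). Of 41 type I interferon genes 28 were higher and 0 lower (median 1.44), and of 22 interferon-gamma genes 15 and 0 (1.51). Isg15, a ubiquitin-like antiviral protein, had 418 CPM in day 3 members and 82.7 CPM in PBS members (2.34, 2.20 to 2.47), and other macrophages had 1331 CPM on day 3 and 126 CPM with PBS (3.40). Slfn4 (3.84, 3.41 to 4.27), Rsad2 (2.71, 2.52 to 2.90) and Cxcl10 (1.71, 1.61 to 1.81) were higher too, with 4.36, 3.08 and 2.20 in other macrophages. Other macrophages had 39 of 41 type I interferon genes higher, with a median of 2.23.

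Ly6c2, the surface protein of inflammatory monocytes, had 116 CPM in day 3 members and 2.15 CPM in PBS members (5.75, 5.22 to 6.32), and Plac8 was at 5.31 (4.67 to 6.00). They headed the list, yet the day 3 level of Ly6c2 in other macrophages was 401 CPM. The monocyte list as a whole was mixed, with 7 of 19 measured genes higher and 2 lower in members (median 0.50, -0.44 to 1.66). Lyz1 (-1.63) and Fn1 (-1.04) were the lower ones, and Ccr2 was not called (-0.19). At least 3 of Ly6c2, Plac8, Chil3, Ccr2 and Slfn4 were found in 16.03% of day 3 members (10.2 to 23.4%). The share in PBS members was 0.0873% (0.0106 to 0.315%). In other macrophages it was 28.8% on day 3 and 0.777% with PBS. These shares were not thinned, and day 3 members were deeper than PBS members. H2-Aa had 879 CPM in day 3 members and 104 CPM in PBS members (3.08, 2.97 to 3.18), with 2.88 in other macrophages, and 6 of 12 measured MHC class II genes were higher. H2-Eb1 was at 3.09, and Ccl5 at 3.21. Ccl5 is also a lymphocyte gene, and its ratio was 2.34 without barcodes with lymphocyte genes and the top 5% of UMIs.

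The p53 list had 14 of 33 genes higher and 0 lower on day 3, with a median of 0.73, or 0.46 without barcodes with lymphocyte genes and the top 5% of UMIs. Cdkn1a had 253 CPM in PBS members, 554 CPM in day 1 members and 996 CPM in day 3 members, and its day 3 ratio was 1.98 (1.90 to 2.07). Phlda3 was at 3.16 (2.80 to 3.52) in members and at 2.15 in other macrophages, and Epha2 at 2.60 and 0.76. Among the lowest, Spp1, which encodes osteopontin, had 594 CPM in day 3 members and 2509 CPM in PBS members (-2.08, -2.17 to -1.98). In other macrophages it was at -1.84. Hmgb3, Stmn1, Pclaf, Hspb1, Cdkn3, Slc39a10 and Gja1 were at -3.93 to -1.82 in members. The limit on cell cycle UMIs is again stricter for the deeper day 3 members, whose Mki67 stood at 7.85 CPM, against 19.8 CPM in PBS members. Cell cycle genes such as Stmn1 and Cdkn3 can be lower by the rule itself, so their values are a description. Fst and Cdhr3 had 0 UMIs in day 3 members, 108 and 87 in PBS members, and were at least 1.76 and 1.45 lower on the log2 scale against a floor of 3 counts.

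The median log2 ratio of the brain macrophage genes was slightly negative in day 3 members against PBS members, with few genes called. This median was lower still in day 3 other macrophages, a difference between the classes that was not tested. Of 28 measured genes of that programme 1 was higher and 2 were lower in members (median -0.15, -0.435 to -0.00162). In other macrophages 2 were higher and 8 lower of 29 (median -0.54, -0.99 to -0.20). Over all genes 1.98% were lower in members and 8.11% in other macrophages on day 3, so the counts stand on unlike backgrounds. P2ry12 had 50.4 CPM in day 3 members and 68.1 CPM in PBS members, and other macrophages had 19.9 CPM on day 3 and 44.7 CPM with PBS. More of the other macrophages had no gate gene on day 3, so their make-up moved with the gate. Members were picked in each library by gate genes known from the same programme. The part of the gate in this difference was not tested. Of the resident macrophage genes 2 were higher and 4 lower of 20 in members, Igf1 at -1.67 and Cbr2 at -1.30, and 2 and 11 of 21 in other macrophages.

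Transcripts of other cells were again higher in day 3 members. Gzmc, Gzmb and Il2rb of lymphocytes were at 4.87, 4.62 and 3.54, and 1.85, 2.70 and 1.03 without barcodes with lymphocyte genes and the top 5% of UMIs. Col1a1, a collagen of fibroblasts, had 97.4 CPM in day 3 members and 5.10 CPM in PBS members (4.26), and its ratio was 1.14 without those barcodes. Fibroblast and pericyte markers summed to 344 CPM in day 3 members, against 68.5 CPM in PBS members. Of the day 3 members 16.03% lay in the top 5% of UMIs of their library, against 2.23% of PBS members. Without them and those with lymphocyte genes, 423 genes were higher and 199 lower on day 3.

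On day 7 fewer interferon and p53 genes were called than on day 3. Of 11137 genes 549 were higher (4.93%) and 530 lower (4.76%). Slc39a1, a zinc transporter, had 634.5 CPM in day 7 members and 79.0 CPM in PBS members (3.00, 2.90 to 3.11), and other macrophages were at 3.06. Adap2os (3.98), Rpgrip1 (3.52), Slc24a5 (3.52), Acot2 (3.33), Gng10, Spry2, Nkg7, Pglyrp1 and Gstp1 made up the rest of the 10 highest. Tpt1, a translation-linked protein, had 1595 CPM in day 7 members and 5766 CPM in PBS members (-1.85, -1.90 to -1.81), and Rack1 and S100a4 were at -1.92 and -2.09. In other macrophages these 3 were at -1.87, -1.96 and -2.25.

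Day 7 members had less heat shock RNA, with 5 of 15 genes lower and 0 higher (median -0.82), Hsph1 at -1.52 and Hsp90ab1 at -1.18. In other macrophages 7 of 15 were lower (median -0.81). Fabp5 (-1.67) and Lpl (-2.53) of lipid handling, Gadd45b (-1.73), Lars2 and Pgf were lower as well, and other macrophages had -1.71 for Fabp5, -1.17 for Lpl and -1.58 for Gadd45b. Acta2 and Mcpt4 had 0 UMIs in day 7 members, 84 and 66 in PBS members, and were at least 2.48 and 2.13 lower on the log2 scale against the floor of 3 counts. Both are markers of other cells. Mast cell markers, with Mcpt4, summed to 14.1 CPM in PBS members and 0.924 CPM in day 7 members, and to 56.9 and 0.715 CPM in other macrophages. Fibroblast and pericyte markers, with Acta2, went the other way, at 68.5 CPM in PBS members and 172.5 CPM in day 7 members. Bhlhe41 had 91.8 CPM in day 7 members and 21.8 CPM in PBS members (2.08, 1.85 to 2.30), and Cebpb was at 1.72 and Hes1 at 1.77. Of the 29 listed factors 4 were higher and 1 lower. Other macrophages had 1.53 for Bhlhe41, 1.59 for Cebpb and 1.73 for Hes1.

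T cell markers had 9 of 11 genes higher on day 7 (median 1.59, and 0.41 without the barcodes with lymphocyte genes and the top 5% of UMIs), and 7.14% of day 7 members had 2 or more lymphocyte genes. Of 12 measured MHC class II genes 4 were higher on day 7, with Cd74 at 1.86 (1.80 to 1.93) in members and 2.06 in other macrophages. Of 41 type I interferon genes 5 were higher (median 0.30), of 33 p53 targets 2 (median 0.02), and of 28 brain macrophage genes 0 were higher and 0 lower (median -0.09). The CXCR3 ligand Cxcl10 had 71.5 CPM in day 7 members and 222 CPM in PBS members (-1.64, -1.83 to -1.45) and was at -0.57 in other macrophages, while the monocyte chemokines Ccl7 and Ccl12 were at 1.56 and 1.22.

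**Figure D5:**
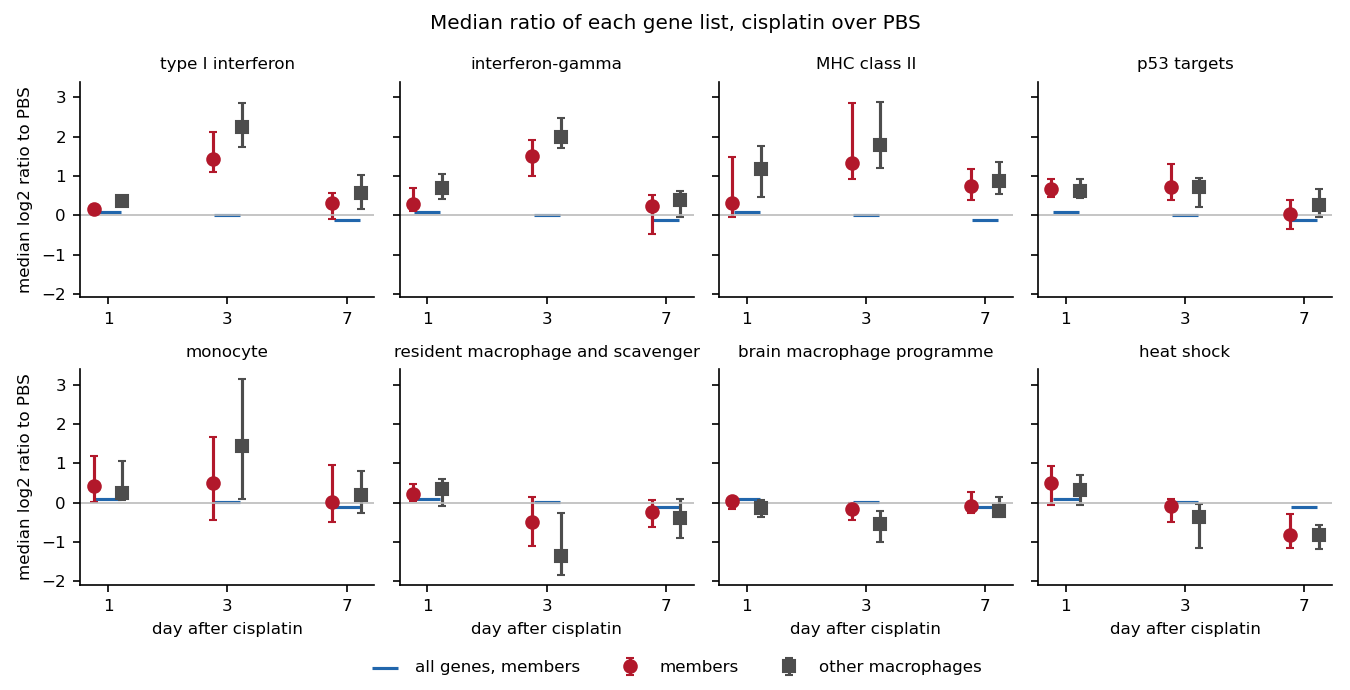
Median log2 ratio of cisplatin day 1, 3 and 7 over PBS for 8 gene lists, in members (red circles) and other macrophages (grey squares), with the order-statistic interval over list genes; blue dashes give the median of all genes in members. The 2 interferon lists peak on day 3, at 1.44 and 1.51 in members and 2.23 and 1.99 in other macrophages. The brain macrophage programme has medians within 0.15 of 0 in members, with the day 3 interval below 0.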

How the data were processed

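The authors deposited, for 4 libraries and 31053 features, matrices of whole-number UMI counts without normalization. Cell Ranger 3.1.0, Seurat 3.1.2 and the build mm10 are named in the submitters' processing notes, and how barcodes were called is not given in the sources used here. Members, gene lists and naming rules were chosen with earlier results of these data known. Doublets were not called: barcodes with 2 or more of 8 lymphocyte genes stayed in and were left out in an alternative. Counts were summed per class and library. Members and other macrophages were compared with edgeR 4.0.16 (TMM, filterByExpr, Benjamini-Hochberg), with the library as block and a check on simulated data, and with DESeq2 1.42.0 as an alternative. Days were compared with PBS as ratios of CPM with exact conditional binomial intervals. Thinning drew 2000 UMIs per barcode. The p-values measure spread between these 4 libraries, which may be technical. Named genes were the 15 highest and 15 lowest called genes (20 CPM or more, same direction in 4 libraries), the 10 highest and lowest per day by the interval bound nearer to 1 (50 UMIs or more), and leading members of each list. Of the listed symbols 2 were missing from the features. Promoters are from RefSeq (GRCm38.p6), with an entry for 4 of the 5 gate genes. Some listed genes are not reported here.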

Additional observations from a re-analysis of the deposited data

How the results depend on the processing

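The share of members, given for PBS, day 1, day 3 and day 7, was 10.0%, 5.50%, 0.387% and 5.71% after thinning to 2000 UMIs, 59.2%, 54.7%, 11.7% and 47.4% with at least 2 gate genes, 7.27%, 8.81%, 0.262% and 3.03% with at least 4, and 29.6%, 29.4%, 3.14% and 18.9% of macrophages. It was 29.9% in PBS without doublet-like barcodes (those with 2 or more lymphocyte genes or the top 5% of UMIs) and 29.0% on day 1 with at most 5% mitochondrial UMIs. Against other macrophages, 1073 genes were higher when these had no gate gene, 149 were higher and 253 lower after thinning, and edgeR called 0 and 0 with no library block (253 and 345 at an unadjusted p under 0.05), against 504 and 695 in DESeq2. Leaving out 1 library gave 158 to 985 higher and 275 to 1084 lower genes. Without doublet-like barcodes the sign turned for Cd3g (-0.57), Cd3d (-0.24), Nkg7 (-0.53), Gzmb (-0.64), Il2rb (-0.41), Icos (-0.36), Ltb (-0.61), Thy1 (-0.25) and Ms4a4b (-0.61), and after thinning for Gzmb (-0.053), Il2rb (-0.16) and Icos (-0.094). On day 1 the higher and lower counts were 291 and 78 with at least 100 UMIs, 150 and 100 after thinning and 1132 and 337 at 1.5-fold, and 412 and 396 were higher with 4 gate genes and without doublet-like barcodes. Thinning took the day 1 medians of the monocyte and inflammatory lists to -0.017 and -0.0059. On day 3, 305 genes were higher with at least 100 UMIs, 290 were higher and 47 lower after thinning, 299 and 77 with 4 gate genes and 1028 and 520 at 1.5-fold. With 4 gate genes, which leaves 13 day 3 barcodes, the day 3 ratio of Gja1 turned (0.35). Too few UMIs were left for a direction, with 0 in day 3 members and a floor of 3 counts above the PBS level, for Pclaf, Hspb1, Cdkn3, Slc39a10 and Gja1 after thinning, which leaves 17 barcodes, for Fst, Cdkn3 and Cdhr3 with 4 gate genes, and for Fst without doublet-like barcodes. On day 7, 322 genes were higher with at least 100 UMIs, 315 were higher and 350 lower after thinning and 1121 and 1633 at 1.5-fold. For the turned values the cause was not tested. The 131 member barcodes of day 3 limit every ratio there.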

Other observations

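Barcodes that the rule leaves out also carried the gate genes. Among kept barcodes with 5 or more UMIs of the 6 cell cycle genes, at least 3 gate genes were found in 679 of 1472 in the PBS library (46.1%, 43.6 to 48.7%), 157 of 390 on day 1 (40.3%, 35.4 to 45.3%), 13 of 156 on day 3 (8.33%, 4.51 to 13.8%) and 63 of 247 on day 7 (25.5%, 20.2 to 31.4%). The same pattern over days, lowest on day 3, thus stood in cycling cells. Among barcodes with more than 10% mitochondrial UMIs the shares were 7.27%, 6.42%, 1.13% and 3.80%, from 94, 139, 8 and 3 barcodes. These shares were not thinned.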
